A study of Homo sapiens with 6 samples.

Results

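The genes described here are 51 members of the cytosolic and mitochondrial chaperone families, out of 58721 genes in the deposited count table. They were taken by name: the HSP70 and HSP110 genes, the HSP40 (J-domain) genes, the small heat shock protein genes HSPB1 and HSPB8, the BAG genes, HSP90 with its cochaperones, the HSP70 cochaperones ST13 and STUB1, the mitochondrial chaperones, the CCT and prefoldin subunits, and the heat shock factors HSF1 and HSF2. Further genes of these families lie outside the members. All 51 members passed the filter on low counts and were among the 20713 genes tested.

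Molecular chaperones bind unfolded protein and help it reach or keep its native shape. HSP70 works in cycles of ATP use that J-domain proteins start and that nucleotide exchange factors such as the BAG and HSP110 proteins complete, and clients such as kinases and steroid receptors pass on to HSP90. The ring-shaped CCT complex folds newly made actin and tubulin, which prefoldin delivers to it, and a separate HSP70 and the HSP60/HSP10 chamber fold proteins inside mitochondria. Heat and other stresses that unfold protein release HSF1, which binds heat shock elements, runs of alternating GAA and TTC units, in the promoters of part of this set.

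The study sequenced polyadenylated RNA from A549, an established human lung adenocarcinoma cell line grown in DMEM with 10% FBS. Each group had 3 libraries, described here by their labels. Cells labelled KAT8 WT OE (here WT) were to overexpress wild-type KAT8. Those labelled KAT8 R98W OE (here R98W) were to overexpress KAT8 with the R98W substitution. KAT8 is a histone acetyltransferase that acts on lysine 16 of histone H4. By label neither group is a line without the transgene, so every difference below is between groups labelled as the 2 overexpressed forms. The KAT8 level of a WT library, given below, goes against its label. The labels do not give the vector or promoter of the transgene, the number of clones, or whether the 3 libraries of a group came from separate cultures, and p-values reflect no more than how far these libraries scatter. A bulk library cannot tell fewer cells that make an RNA from less of that RNA per cell.

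Total counts ran from 90007121 to 110152936 per library. KAT8 was at 12.2, 195 and 184 CPM (counts scaled to library size) in the WT libraries and at 166, 196 and 236 CPM in the R98W libraries. The library labelled WT replicate 1 thus had far less KAT8 RNA than the other 5, which goes against its label as an overexpression library, so counts of changed members are also given without it where they differ. Of 6 epithelial markers, KRT7, KRT8, KRT18 and CDH1 did not pass the test (KRT8 averaged 4441 CPM in WT and 4377 CPM in R98W), EPCAM fell from 7.10 to 3.92 CPM (log2 fold change -0.86, adjusted p by edgeR = 0.000151) and KRT19 rose from 39.4 to 54.7 CPM (0.48, adjusted p by edgeR = 3.5e-05). Of the markers of other cell types, the pan-leukocyte marker PTPRC, the endothelial markers VWF and KDR and the fibroblast markers DCN and COL1A2 were below 0.1 CPM in each library and CD3E was at 0, while COL1A1 averaged 11.8 and 12.3 CPM and CD14 7.78 and 7.21 CPM. No tested marker of another cell type passed the test, and the part of the marker changes in the results was not tested.

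Promoter windows of some of these genes hold the units that heat shock factors recognise, and 5 genes are shown because their genes head the results that follow or hold the longest runs. Windows from 250 bases before to 50 bases after the start were read from RefSeq (GRCh38.p14), and 44 of the 51 genes had one. Where a gene had more than 1 window, as 14 members did, only the first listed was used. GAANNTTC and TTCNNGAA, each of which reads the same on both strands, were searched as pairs of units, and overlapping pairs were joined into longer runs. Capitals mark the run in each stretch, written 5′ to 3′ on the strand of the gene.
HSPA1A (chr6:31815417-31815464, plus strand): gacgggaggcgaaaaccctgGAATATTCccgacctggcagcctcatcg
HSPA1B (chr6:31827613-31827660, plus strand): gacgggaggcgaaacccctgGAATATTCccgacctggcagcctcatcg
HSPA8, farther from the start (chr11:123062334-123062386, minus strand): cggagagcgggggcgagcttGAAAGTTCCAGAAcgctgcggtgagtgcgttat
HSPA8, nearer the start (chr11:123062159-123062211, minus strand): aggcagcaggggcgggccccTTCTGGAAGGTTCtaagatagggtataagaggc
CHORDC1 (chr11:90223067-90223129, minus strand): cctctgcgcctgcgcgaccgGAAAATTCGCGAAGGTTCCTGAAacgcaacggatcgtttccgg
DNAJB6 (chr7:157336853-157336905, plus strand): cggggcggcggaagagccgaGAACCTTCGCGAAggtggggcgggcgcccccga

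The stretches of HSPA1A and HSPA1B hold the same pair of units, 106 to 99 and 105 to 98 bases before the start. Beyond a pair, HSPA8 has a run of 13 bases at each of 2 places, CHORDC1 a run of 23 bases that ends 38 bases before the start, and DNAJB6 a run of 13 bases. A pair of units lay in the windows of 13 of 44 members (29.5%), against 13.7% of all 27305 RefSeq windows, taken as 1 per gene symbol. At least 3 units in a row lay in 4 of 44 (9.09%), namely CHORDC1, DNAJA1, DNAJB6 and HSPA8, against 0.487% of all windows. Among the 15 members known to be induced by heat the counts were 6 and 3, among 7 CCT windows 2 and 0, and among 4 prefoldin windows 1 and 0. These are matches of letters and not measured binding.

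Across the set, more chaperone genes were higher than lower in R98W. By edgeR's quasi-likelihood test with Benjamini-Hochberg adjustment over all genes (adjusted p below 0.05, the threshold used throughout), 31 of 51 rose, 4 fell (DNAJA4, DNAJB5, PFDN1 and PFDN6) and 16 did not pass. Of all tested genes 16.2% were called higher and 18.5% lower. The median log2 fold change of the members was 0.22, a fold of 1.17, against -0.005 over all tested genes. Without the library labelled WT replicate 1 the counts were 27 higher and 6 lower. Scaling by total counts alone, added after the data were seen, shifted the median of all tested genes by -0.12 and gave 17 members higher and 6 lower, with 1708 higher and 5343 lower of all genes against 3364 and 3839. The WT and R98W values did not overlap for 40 of the 51, where 45.6% of all tested genes did not overlap. Among tested genes that averaged 64 CPM or more, 2026 of 3444 did not overlap, beside 32 of the 39 members at that level. Members made up 1.87%, 1.94% and 1.89% of all counts in the WT libraries and 2.02% in each R98W library.

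**Figure D1:**
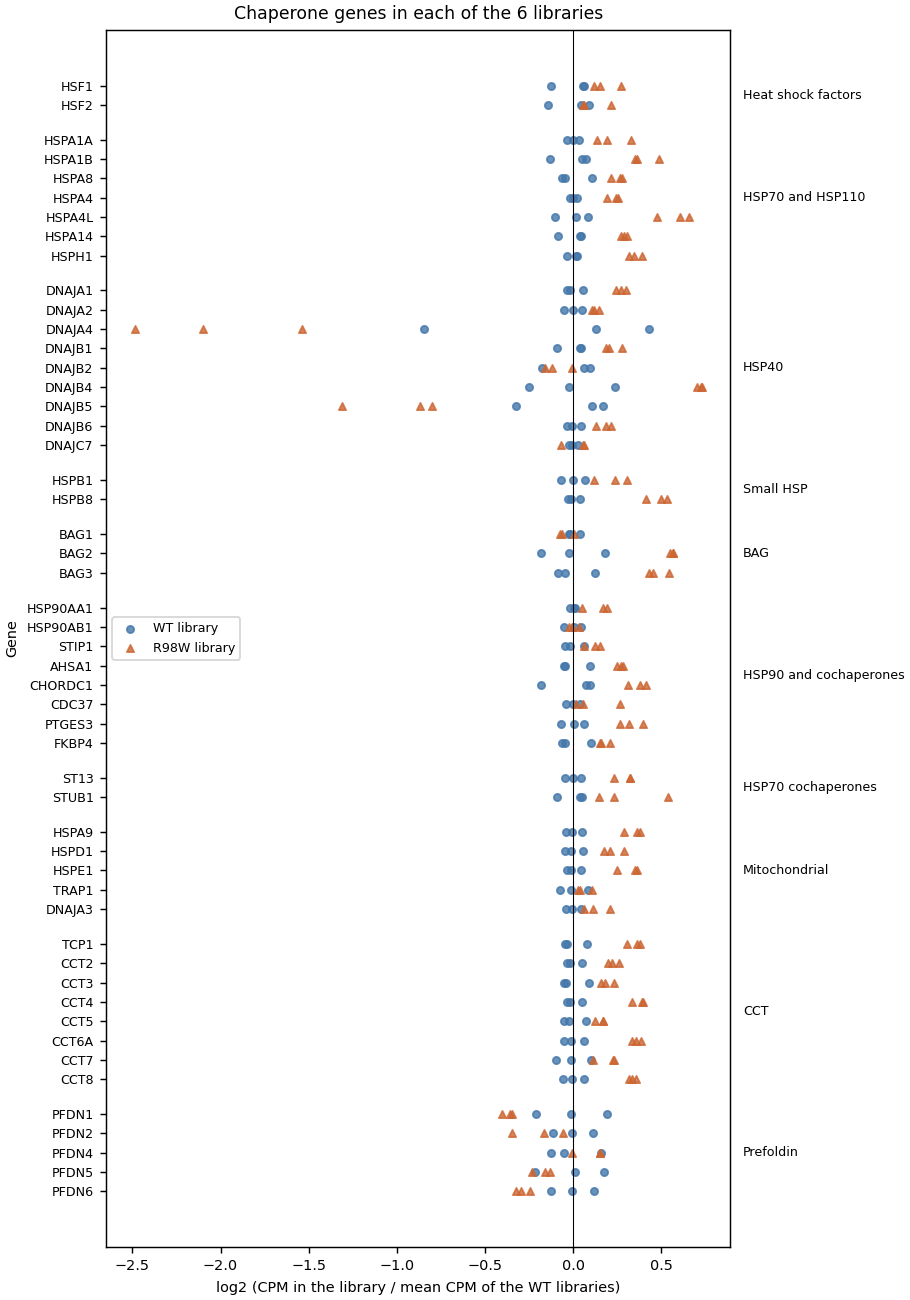
Each point is 1 library's CPM for 1 gene, as log2 over the mean of the 3 WT libraries (horizontal axis), with genes grouped by role on the vertical axis (circles, WT; triangles, R98W). Most R98W points lie to the right of 0, while DNAJA4, DNAJB5, PFDN1 and PFDN6 lie to the left.

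Most members are abundant genes, and abundant genes as a whole were more often higher in R98W. Among the 3444 tested genes that averaged 64 CPM or more over all 6 libraries, 40.4% were called higher and 9.41% lower, with a median log2 fold change of 0.13. The 39 members at that level had 28 higher and 0 lower by edgeR with a median of 0.23. DNAJB4, BAG2 and HSPA1B, each called higher, averaged only 50.4, 52.4 and 61.4 CPM in WT. They reached the level through R98W, at 83.1, 77.3 and 81.1 CPM. PFDN5, also at that level, was lower at an unadjusted p below 0.05, and DESeq2 called 0 of the 39 lower. The 12 members under 64 CPM had 3 higher and 4 lower. Without the library labelled WT replicate 1, the members at 64 CPM or more had 24 higher and 1 lower, and those under it 3 and 5. Of all tested genes at 64 CPM or more, 1375 were then higher and 333 lower. When each library's trend of fold change with expression level was removed before the test, 13 members were higher and 6 lower, against 14.6% and 17.3% of all tested genes, and the members' median was 0.07. Of the 35 calls, 17 remained after that correction and 18 did not.

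**Figure D2:**
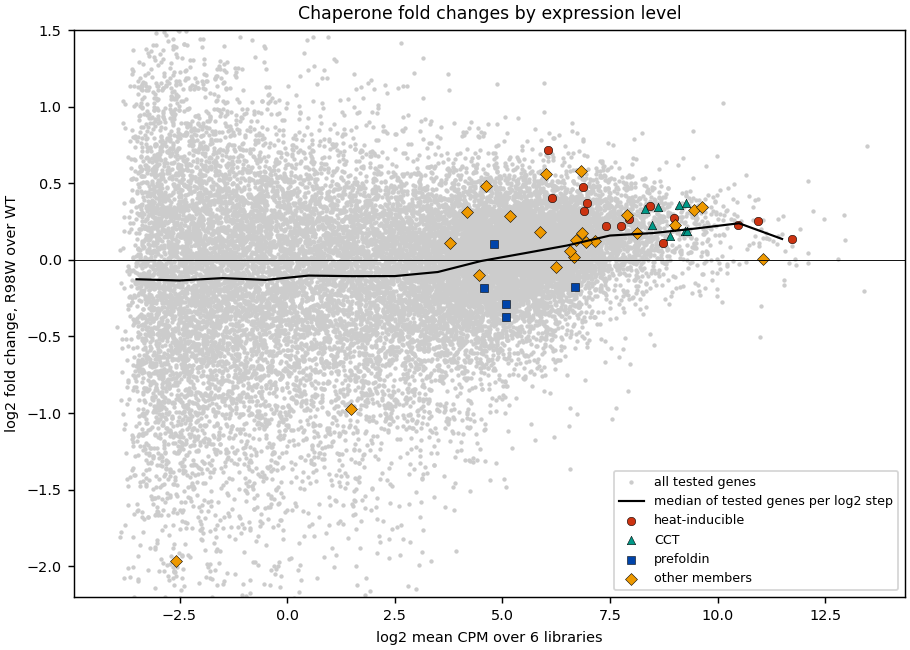
Each grey point is a tested gene, with log2 mean CPM over the 6 libraries (horizontal axis) and log2 fold change of R98W over WT (vertical axis); coloured symbols are chaperone genes and the line is the median per log2 step. The line rises toward abundant genes, and 243 genes lie outside the vertical range drawn.

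The heat shock factors themselves did not pass the test. HSF1, the main activator of the heat shock response, was at 56.9, 50.2 and 57.0 CPM in WT and 59.4, 60.9 and 65.9 CPM in R98W. The groups did not overlap, yet the log2 fold change of 0.18 (SE 0.07) had an adjusted p by edgeR of 0.0555. The gene passed in edgeR with DESeq2's size factors (adjusted p = 0.0482), in DESeq2 (0.0447) and in edgeR after a correction for exon length (0.0135). HSF2, a related factor, averaged 13.3 ± 1.12 and 14.4 ± 0.92 CPM (SD, n = 3 each), with overlapping groups and a log2 fold change of 0.11 that turned to -0.01 under total-count scaling.

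All 7 HSP70 and HSP110 members rose, by log2 fold changes of 0.22 to 0.58. Among all tested genes 16.2% were called higher, and among those at 64 CPM or more 40.4%. The HSP70 family genes HSPA2, HSPA12A and HSPA12B, outside the members, did not pass, at -0.07, 0.07 and -0.33. HSPA4L, an HSP110 relative that acts as a nucleotide exchange factor, was at 95.9, 84.2 and 91.4 CPM in WT and 138, 143 and 126 CPM in R98W. Every R98W library lay above every WT library, and the log2 fold change was 0.58 (SE 0.07, adjusted p by edgeR = 4.15e-06). HSPH1, the heat-inducible HSP110, went from 307, 295 and 306 CPM to 385, 397 and 378 CPM, again without overlap, a log2 fold change of 0.35 (SE 0.06, adjusted p by edgeR = 0.000178). HSPA8, the HSP70 made in unstressed cells, counted here among the heat-inducible members, whose promoter holds both runs shown above, had the highest level per length of the class and was at 1738, 1933 and 1718 CPM in WT and 2084, 2179 and 2159 CPM in R98W. Its log2 fold change was 0.25 (adjusted p by edgeR = 0.00396), but 0.00 after the correction for level and 0.14 under total-count scaling, neither of which passed. HSPA4, another HSP110 relative, and HSPA14, which associates with ribosomes, rose by 0.23 and 0.29. The HSPA14 gene shares 17.4% of its exon bases with another gene on the same strand that the annotation also names HSPA14, for which the log2 fold change was 0.09, so reads of the shared part may be split. Without the library labelled WT replicate 1 all 7 calls held, and after the correction for level 4 did, those of HSPA1A, HSPA8 and HSPA4 being lost. Under total-count scaling the same 3 and HSPA14 were lost.

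HSPA1A and HSPA1B, the stress-inducible HSP70 pair, encode nearly the same RNA, so reads can be assigned to either or dropped and their separate values are uncertain. HSPA1A (chromosome 6, 31815464 to 31817946) was at 485, 463 and 473 CPM in WT and 541, 520 and 595 CPM in R98W, with no overlap. HSPA1B (chromosome 6, 31827735 to 31830255) was at 64.6, 56.0 and 63.6 CPM and at 78.3, 79.0 and 85.9 CPM. The log2 fold changes were 0.22 (SE 0.07, adjusted p by edgeR = 0.0127) and 0.40 (SE 0.07, adjusted p by edgeR = 0.000232). The call of HSPA1A was lost without WT replicate 3 or R98W replicate 3, under total-count scaling, and after the correction for level, where its log2 fold change was 0.02. HSPA1B made up 11.5% ± 0.593 of the pair's counts in WT and 12.8% ± 0.325 in R98W (SD, n = 3 each), with an exact two-sided permutation p of 0.1, the smallest that 3 against 3 allows. HSPA6, a strictly inducible HSP70 outside the members, stayed under 1 CPM in each library, at 0.251, 0.817 and 0.274 CPM in WT and 0.713, 0.548 and 0.805 CPM in R98W, and did not pass the test except without WT replicate 2.

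The HSP40 genes moved in both directions: 4 of 9 rose, 2 fell and 3 did not pass. Among all tested genes 16.2% were called higher and 18.5% lower, and among those at 64 CPM or more 40.4% and 9.41%. DNAJB4 (chromosome 1, 77979175 to 78017964), a J-domain partner of HSP70, had the largest rise of any member, from 59.4, 42.3 and 49.6 CPM to 83.4, 82.2 and 83.7 CPM. The WT libraries were spread and the R98W libraries close together, without overlap, and the log2 fold change was 0.72 (SE 0.09, adjusted p by edgeR = 5.45e-06). DNAJA1, DNAJB1 and DNAJB6, which also start the HSP70 cycle, rose by 0.27, 0.22 and 0.18. DNAJA1 was at 475, 450 and 445 CPM in WT and 542, 563 and 552 CPM in R98W, with a gap between the groups wider than the range within either. Of those rises, DNAJB6's was lost without WT replicate 1, without WT replicate 3, without R98W replicate 1, and without R98W replicate 2, and DNAJB1's without WT replicate 3. All 3 were lost after the correction for level (0.08, 0.07 and 0.07), which left DNAJB4 as the 1 HSP40 gene higher. The class had 3 higher and 2 lower once the library labelled WT replicate 1 was dropped.

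DNAJB5 and DNAJA4 were the 2 lowest members per length, and both fell. DNAJB5 was at 2.98, 4.03 and 4.19 CPM in WT and 1.51, 2.05 and 2.14 CPM in R98W. The groups did not overlap and the log2 fold change was -0.98 (SE 0.18, adjusted p by edgeR = 0.000245). DNAJA4 had only 29, 17 and 34 counts in the WT libraries and 9, 6 and 5 in the R98W libraries, so its log2 fold change of -1.96 (SE 0.56, adjusted p by edgeR = 0.0104) rests on few reads, and the call was lost without WT replicate 3 or R98W replicate 3. DNAJA2, DNAJB2 and DNAJC7 did not pass, with log2 fold changes of 0.12, -0.10 and 0.02.

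Both small heat shock protein members rose. The shares called higher were 16.2% of all tested genes and 40.4% of those at 64 CPM or more. CRYAB, HSPB6, HSPB9 and HSPB11, tested but outside the members, did not pass, at log2 fold changes of -0.21, -0.69, 0.15 and -0.06. CRYAB had groups that did not overlap, while HSPB6 and HSPB9 had few counts. HSPB8, which works with BAG3 in the autophagy of misfolded protein, went from 21.1, 20.1 and 20.3 CPM to 27.3, 29.7 and 28.9 CPM, 2 tight groups that did not overlap (log2 fold change 0.48, SE 0.08, adjusted p by edgeR = 7.18e-05). HSPB1, also called HSP27, was at 163, 149 and 156 CPM in WT and 169, 184 and 193 CPM in R98W; its log2 fold change was 0.22 (adjusted p by edgeR = 0.0154) and the call was lost without WT replicate 3, R98W replicate 2 or R98W replicate 3, after the correction for level (0.09) and under total-count scaling (0.11).

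Among the BAG members, BAG2 and BAG3 rose and BAG1 did not pass. Of all tested genes 16.2% were called higher, and of those at 64 CPM or more 40.4%. BAG4, BAG5 and BAG6, outside the members, did not pass, at log2 fold changes of 0.15, -0.07 and -0.13. BAG3 (chromosome 10), the partner of HSPB8 and a nucleotide exchange factor of HSP70, was at 106, 91.5 and 94.2 CPM in WT and 131, 133 and 142 CPM in R98W (log2 fold change 0.48, SE 0.07, adjusted p by edgeR = 3.41e-05). BAG2, an inhibitor of the ubiquitin ligase encoded by STUB1, went from 59.5, 46.2 and 51.5 CPM to 77.7, 77.6 and 76.7 CPM (log2 fold change 0.56, SE 0.08, adjusted p by edgeR = 2.01e-05). Neither gene's groups overlapped. BAG2 shares 42.7% of its exon bases with RAB23 on the other strand, whose log2 fold change was 0.14 and did not pass, and the strand setting of the counting is not given in the sources used here. BAG1 had overlapping groups and a log2 fold change of -0.04.

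The HSP90 genes themselves were the most abundant members per length and showed no called change. In TPM, counts corrected for exon length, HSP90AB1 averaged 2527 and HSP90AA1 2168 in WT, ahead of HSPA8 at 1307 and HSPD1 at 1089. HSP90AB1, the constitutive form, was at 2145, 2203 and 2055 CPM in WT and 2102, 2185 and 2128 CPM in R98W. The groups overlapped, with a log2 fold change of 0.00 (SE 0.06, adjusted p by edgeR = 0.978). HSP90AA1, the heat-inducible form, was at 3239, 3247 and 3184 CPM and at 3684, 3627 and 3334 CPM, not overlapping but short of the threshold (log2 fold change 0.14, adjusted p by edgeR = 0.0817). It passed without R98W replicate 3. HSP90AB1 was the one HSP90 gene called lower after the correction for level, at -0.25 (adjusted p by edgeR = 0.0013).

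Of the HSP90 cochaperones, 4 of 6 rose. All 6 averaged 64 CPM or more, where 40.4% of tested genes were called higher. CHORDC1, whose promoter holds the longest run shown, was at 115, 96.2 and 117 CPM in WT and 142, 146 and 136 CPM in R98W (log2 fold change 0.37, SE 0.07, adjusted p by edgeR = 0.000728). PTGES3, the p23 protein that stabilises the closed form of HSP90, went from 648, 593 and 625 CPM to 818, 774 and 748 CPM (log2 fold change 0.33, SE 0.06, adjusted p by edgeR = 0.000529). AHSA1, which speeds HSP90's ATP use, rose by 0.27, and FKBP4, an immunophilin of steroid receptor complexes, by 0.17 with a call that was lost in 5 of the 6 fits that leave out a library. STIP1, which passes clients from HSP70 to HSP90, and CDC37, which brings kinases, did not pass, at 0.11 and 0.12. After the correction for level CHORDC1 kept its call, while PTGES3 and AHSA1 (0.11 each) and FKBP4 (0.00) lost theirs. The HSP90 class had 3 higher once the library labelled WT replicate 1 was dropped. ST13, which steadies HSP70 bound to ADP, was at 223, 209 and 215 CPM in WT and 270, 270 and 253 CPM in R98W, with no overlap. Both HSP70 cochaperones rose: ST13 by 0.29 (adjusted p by edgeR = 0.00124) and STUB1, a ubiquitin ligase, by 0.32 (adjusted p by edgeR = 0.0176, lost without WT replicate 2, WT replicate 3 or R98W replicate 3). STUB1 shares 42.4% of its exon bases with JMJD8 on the other strand, for which the log2 fold change was 0.39, and the 2 genes cannot be told apart in those bases without strand. ST13 lost its call after the correction for level (0.13) and STUB1 under total-count scaling (0.20).

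Of the mitochondrial chaperones, 3 of 5 rose. All 5 averaged 64 CPM or more, where 40.4% of tested genes were called higher. HSPA9, the mitochondrial HSP70, was at 723, 694 and 678 CPM in WT and 898, 908 and 852 CPM in R98W (log2 fold change 0.34, SE 0.06, adjusted p by edgeR = 0.000234). HSPD1 was at 1363, 1297 and 1271 CPM in WT and 1603, 1515 and 1482 CPM in R98W, and HSPE1 at 105, 110 and 104 CPM and at 126, 137 and 135 CPM, both without overlap. HSPD1 and HSPE1, the HSP60 and HSP10 of the folding chamber, rose by 0.23 and 0.32 (adjusted p by edgeR of 0.00713 and 0.000683). The pair overlap head to head on opposite strands by 281 bases, 14.2% of the HSPE1 exons. The call of HSPD1 was lost without WT replicate 3, under total-count scaling and after the correction for level, where its log2 fold change was -0.01. HSPA9 also lost its call after the correction for level (0.12, adjusted p by edgeR = 0.0896), which left HSPE1 as the 1 mitochondrial gene higher. TRAP1, the mitochondrial HSP90, and DNAJA3, the J-domain partner of HSPA9, did not pass, at 0.06 and 0.13.

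The 8 CCT genes all had higher means in R98W and their groups did not overlap, and 7 of 8 passed the test. All 8 averaged 64 CPM or more, where 40.4% of tested genes were called higher and 2026 of 3444 did not overlap. CCT4 was at 527, 560 and 534 CPM in WT and 712, 681 and 708 CPM in R98W (log2 fold change 0.37, SE 0.06, adjusted p by edgeR = 9.89e-05). CCT6A was at 502, 478 and 465 CPM and at 628, 608 and 616 CPM. TCP1, which encodes the first named subunit, was at 333, 363 and 336 CPM and at 424, 447 and 442 CPM. In these 3 genes the gap between the groups was wider than the range within either group. CCT6A, TCP1 and CCT8 had log2 fold changes of 0.36, 0.35 and 0.33, and CCT2, CCT7 and CCT3 at 0.23, 0.19 and 0.19. CCT5 fell short at 0.15 (adjusted p by edgeR = 0.0621). The class median was 0.28. Without the library labelled WT replicate 1 the count was 5, CCT3 and CCT7 being lost as they were in most other fits that left out a library, and after the correction for level it was 2, CCT4 and CCT6A.

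The prefoldin genes did not follow. PFDN1 (chromosome 5, 140245039 to 140303121), a subunit of the hexamer that hands actin and tubulin to CCT, was at 32.9, 43.6 and 37.9 CPM in WT and 28.8, 30.0 and 29.7 CPM in R98W. PFDN6 (chromosome 6, 33289302 to 33298401) was at 34.4, 40.7 and 37.4 CPM and at 31.7, 29.9 and 30.6 CPM. In both genes the groups did not overlap, and both fell, by log2 fold changes of -0.37 (SE 0.09, adjusted p by edgeR = 0.00272) and -0.29 (SE 0.08, adjusted p by edgeR = 0.00651). PFDN5, the subunit with most counts, was at 93.6, 123 and 110 CPM in WT and 99.2, 92.3 and 97.3 CPM in R98W, and its groups overlapped through the library labelled WT replicate 1. PFDN2, PFDN5 and PFDN4 did not pass, at -0.18, -0.18 and 0.10, and 0 of 5 rose by edgeR, by DESeq2 or at an unadjusted p below 0.05. The library labelled WT replicate 1 had the lowest WT value for PFDN1, PFDN2, PFDN5 and PFDN6, and without it PFDN2 and PFDN5 passed as well, making 4 lower. Of all tested genes 16.2% were called higher and 18.5% lower, and 3944 were lower in the fit without that library. PFDN6 shares 24.5% of its exon bases with RGL2 and 7.65% with WDR46, both on the other strand and both with lower means in R98W (log2 fold changes of -0.27 and -0.26). VBP1, a prefoldin subunit outside the members, rose from 80.3, 81.5 and 83.0 CPM to 102, 94.8 and 96.0 CPM (log2 fold change 0.26, adjusted p by edgeR = 0.0038).

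The summed CPM of the CCT genes was 16.6, 14.4 and 14.6 times that of the 5 prefoldin genes in the WT libraries and 20.7, 21.0 and 20.5 times in the R98W libraries. All R98W libraries lay above all WT libraries. Library WT replicate 1 was the highest of the WT libraries, in the direction of R98W. In TPM the CCT genes averaged from 246 (TCP1) to 674 (CCT4) in WT, and the prefoldin genes from 44.8 (PFDN6) to 131 (PFDN2).

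**Figure D3:**
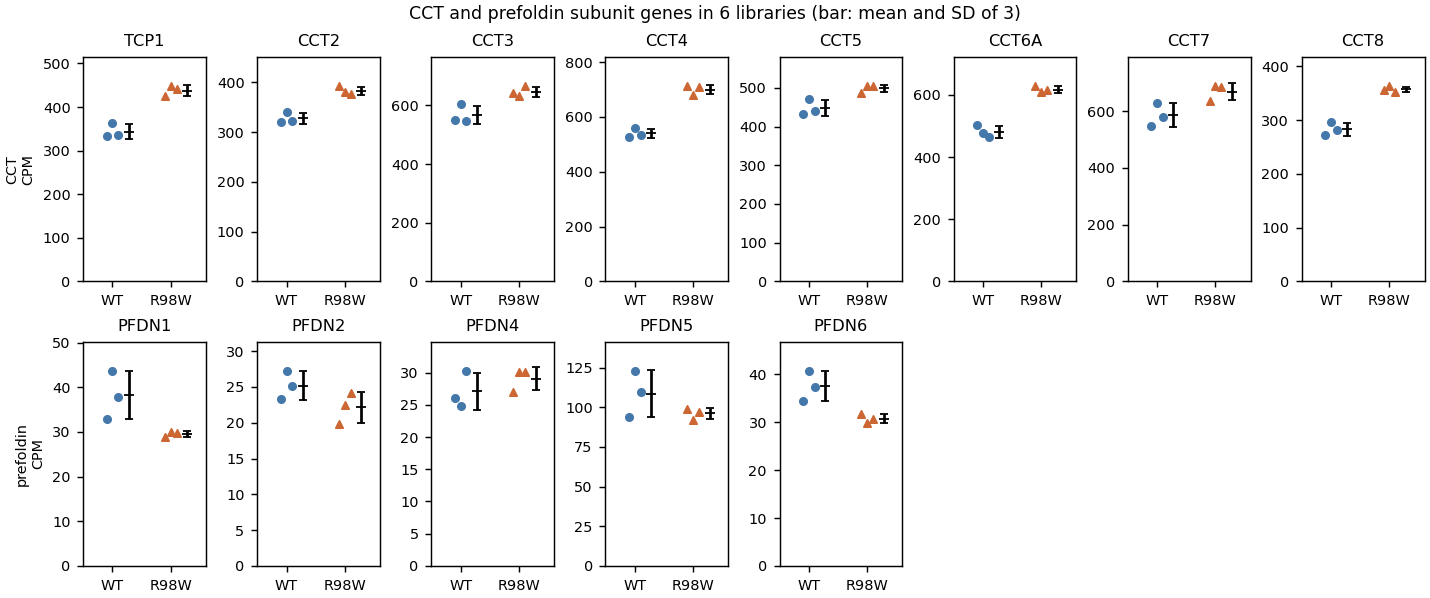
CPM in each library for the 8 CCT (upper row) and 5 prefoldin (lower row) genes, with WT as circles and R98W as triangles on vertical axes that start at 0, and the mean and SD of 3 beside them. The R98W points of every CCT gene lie above the WT points, while those of PFDN1 and PFDN6 lie below.

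Heat-inducible members and the 2 folding machines were set side by side. The 15 members known to be induced by heat were HSPA1A, HSPA1B, HSPA8, HSPB1, HSPH1, HSP90AA1, HSPD1, HSPE1, DNAJA1, DNAJB1, DNAJB4, BAG3, CHORDC1, STIP1 and AHSA1. Of these, 13 rose and 0 fell, with a positive log2 fold change in all 15 and a median of 0.27, and HSP90AA1 and STIP1 were the 2 that did not pass. STIP1 turned to -0.01 under total-count scaling, and HSP90AA1, STIP1 and HSPD1 were below 0 after the correction for level, whereas both HSP90AA1 and STIP1 passed after the correction for exon length. Of the 13 CCT and prefoldin genes, 7 rose and 2 fell, with a median of 0.19, which joins a CCT median of 0.28 to a prefoldin median of -0.18. The 15 heat-inducible and 8 CCT genes all averaged 64 CPM or more over the 6 libraries, where 40.4% of tested genes were called higher and 9.41% lower. HSPA1B and DNAJB4 averaged less than that in WT (61.4 and 50.4 CPM). By the same average, 4 of the 5 prefoldin genes lay under that level. Without the library labelled WT replicate 1, the heat-inducible counts were again 13 and 0, and those of CCT and prefoldin were 5 and 4. After the correction for level, 6 heat-inducible members and 2 CCT genes remained higher, and 3 prefoldin genes were lower.

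The difference of the 2 medians was 0.08 on the log2 scale. As per-library medians relative to the WT mean, it was 0.09, -0.10 and -0.01 in the WT libraries and 0.12, 0.11 and 0.11 in the R98W libraries. The R98W values lay above all WT values, but the lowest of them, 0.108, was close to the highest WT value, 0.0943. That gap was smaller than the WT spread (SD 0.0961 in WT and 0.00743 in R98W). Against CCT alone, the heat-inducible median differed by 0.08, -0.09 and 0.00 in WT and -0.04, 0.00 and 0.03 in R98W, with the groups overlapping. CCT minus prefoldin was 0.08, -0.05 and -0.02 in WT and 0.52, 0.51 and 0.43 in R98W, with no overlap.

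**Figure D4:**
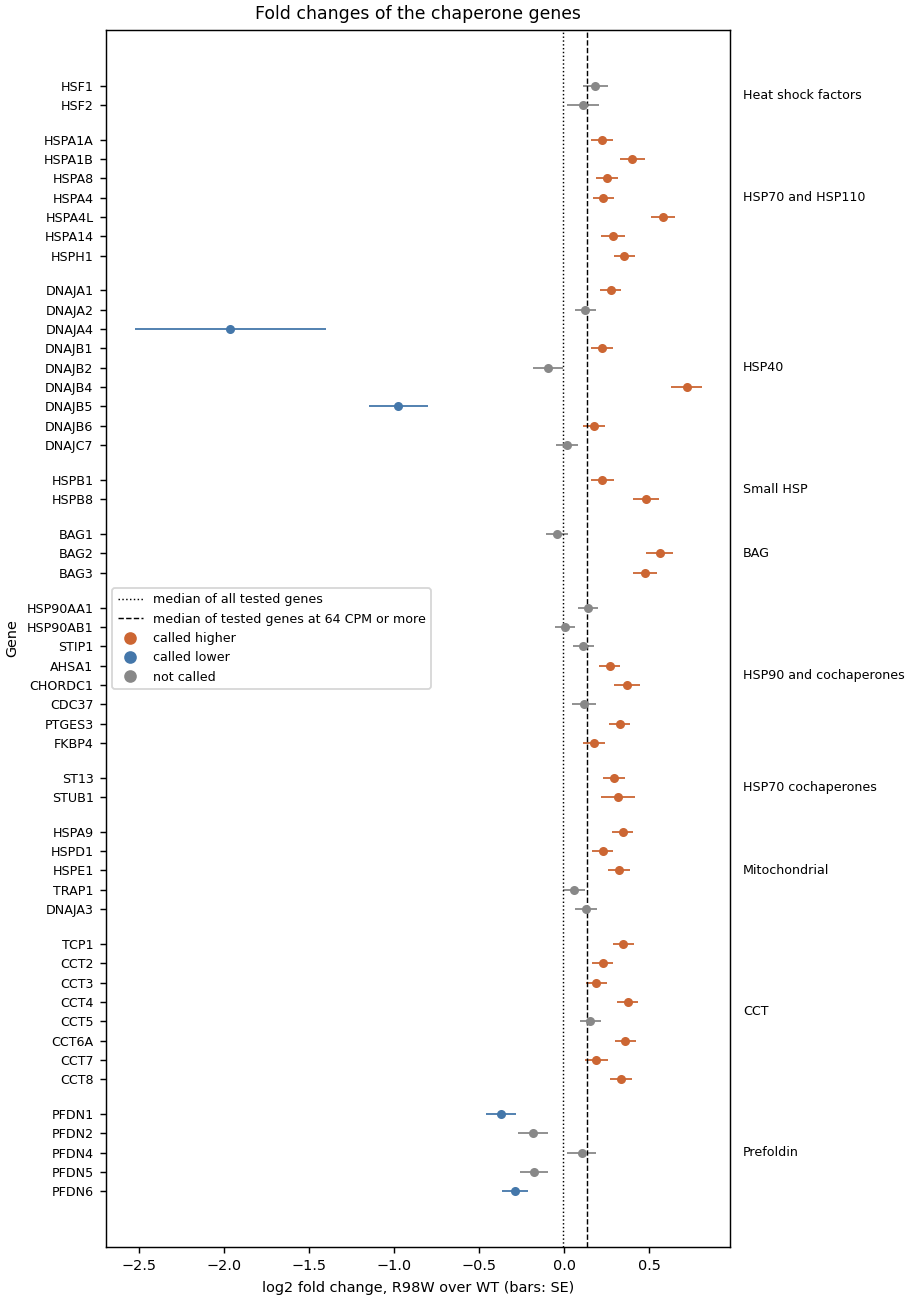
Log2 fold change of R98W over WT (horizontal axis) for each member, grouped by role, with bars of 1 SE and colours for genes called higher, called lower or not called. Dotted and dashed lines mark the medians of all tested genes and of tested genes at 64 CPM or more.

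Of 75 tested chaperone genes outside the members, 13 rose (17.3%) and 12 fell, close to the 16.2% and 18.5% of all tested genes. Without the library labelled WT replicate 1 the counts were 13 and 16. Of 48 other cytosolic chaperone genes tested, 6 rose and 7 fell, with a median log2 fold change of -0.03. DNAJC18, a J-domain gene, fell from 10.7, 12.8 and 12.5 CPM to 5.35, 4.78 and 4.65 CPM (log2 fold change -1.28, SE 0.11, adjusted p by edgeR = 8.38e-08), with no overlap. FKBP8, an immunophilin of the mitochondrial surface, fell by 0.49 on the log2 scale, and SUGT1, an HSP90 partner, and DNAJC6, which uncoats clathrin vesicles, rose by 0.40 and 0.44.

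Of 12 further CCT, prefoldin and tubulin cofactor genes, 4 rose and 1 fell, beside 16.2% and 18.5% of all tested genes. URI1, a prefoldin-like protein, and TBCA, a tubulin folding cofactor, rose by 0.32 and 0.27, while TBCD, which assembles the tubulin dimer, fell by 0.41 on the log2 scale (adjusted p by edgeR = 6.09e-05). TBCE was the other that rose, by 0.29. Of 15 further mitochondrial chaperones and proteases, 3 rose (YME1L1 by 0.28, CLPX by 0.26, and GRPEL1, the exchange factor of HSPA9, by 0.23) and 4 fell, among them CLPB by 0.35 on the log2 scale.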

How the data were processed

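RNA from 6 A549 libraries, 3 per group, was compared. The deposited values are raw read counts per gene from the authors. CASAVA 1.8, HISAT2 2.1.0, HTSeq 0.11.3 and hg38 are named in the submitters' processing notes without roles, while the sources used here give no annotation, strand setting or filter. All 58721 gene identifiers matched GENCODE 29, which gave symbols, coordinates and exon lengths. The test was edgeR 4.0.16, run in R 4.3.3 (filterByExpr with a minimum count of 10, TMM scaling, quasi-likelihood test, Benjamini-Hochberg adjustment over 20713 genes, threshold 0.05). CPM used TMM-scaled totals, TPM divided counts by exon length, and SE is the log2 fold change over the root of F. Library totals of 90007121 to 110152936 counts set the precision, and the biological coefficient of variation was 10.0%.

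The members and lists were chosen with earlier results of these data known. Named genes are KAT8, HSF1, HSF2, HSPA1A, HSPA1B, the 3 members with the smallest p of each class, every member called lower, and the 4 genes with the smallest p of each other list, and the remaining members are given by fold change. HSPA6 was named after its values were seen, as were TBCE and the genes that overlap members. Alternatives were DESeq2 1.42.0, its size factors, upper-quartile and total-count scaling, 2 other filters, limma-voom (limma 3.58.1), a null fold of 1.2, corrections for level and exon length, a threshold of 0.01, summing HSPA1A with HSPA1B, a core heat list, a replicate block, and leaving out each library. On simulated counts with 50 genes at each fold, the test recovered 20% at 1.25-fold, 52% at 1.5-fold, 78% at 2-fold and 84% at 4-fold, with 15 false calls among 20039 unchanged genes. The changed genes were drawn from all levels and were far fewer than the 3364 higher and 3839 lower in the data. The rates therefore do not describe the members, most of which are abundant.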

Additional observations from a re-analysis of the deposited data

How the results depend on the processing

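The count of members called higher (31) was 17 under total-count scaling, 13 after the correction for expression level and 5 when edgeR's glmTreat tested against a fold of 1.2, where 2 rather than 4 members were lower. Against that fold, 884 of all tested genes were higher and 1982 lower. The 13 heat-inducible members called higher became 7, 6 and 2 under those settings and 7 on the core list of 8 genes. The 7 CCT and prefoldin genes called higher became 4, 2 and 0. The log2 fold change of HSF2 was -0.00519 under total-count scaling and that of HSPD1 was -0.0134 after the correction for level. The cause of these changes was not tested. With the replicate block 29 members were higher and 4 lower, DNAJB6 and FKBP4 being lost, beside 3205 and 3678 of all tested genes. Same-numbered libraries did not deviate together (correlations 0.0056, -0.039 and -0.037, and not every library correlated best with its own number). Whether same-numbered libraries were prepared together is not given by the labels and cannot be told from these correlations. DESeq2 gave 33 higher and 4 lower, beside 3618 and 3839 of all tested genes. The correction for exon length gave 37 higher and 5 lower, with all 15 heat-inducible members and 8 CCT and prefoldin genes higher. Of all tested genes 4021 were then higher and 3549 lower. Leaving out 1 library gave 22 to 31 members higher and 3 to 6 lower, 9 to 13 heat-inducible members higher and 5 to 8 CCT and prefoldin genes higher, and 25 of the 35 called members kept the call in all 6 such fits. All tested genes had 2340 to 3268 higher and 3060 to 3944 lower in those fits. The difference between the heat-inducible median and the CCT and prefoldin median ran from 0.047 without WT replicate 2 to 0.113 without WT replicate 1. Without a filter on low counts edgeR's estimate of how far genes differ in spread collapsed (infinite prior degrees of freedom), so each gene's own spread was not used there, and the low adjusted p of KAT8 in that fit, 6.7e-16, is not a call to rely on. DNAJA4 and DNAJB5 have the fewest counts, and reads shared by HSPA1A and HSPA1B limit both.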

Other observations

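Copies of the members' genes elsewhere in the genome, which can take or share reads, were looked at as values. Of the 51 members, 18 had annotated pseudogenes by name, 109 in all, of which 43 were tested, 5 were called higher and 0 lower. The shares among all tested genes were 16.2% higher and 18.5% lower. The summed CPM of the pseudogenes was largest against the parent gene for ST13 (17.3% of its CPM) and HSPD1 (9.16%).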
